A study of Homo sapiens with 12 samples.

Results

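The 9 genes described here, SPRR1A, SPRR1B, SPRR2A, SPRR2D, SPRR3, IVL, FLG, CRNN and CRCT1, encode proteins of the cornified envelope and of the late squamous cell. They are the rows of the deposited table whose Ensembl IDs carry these symbols, 9 of 16299 genes, and all 9 lie in the epidermal differentiation complex on chromosome 1. They were chosen by their measured levels in this table, above all those of BXPC3 in collagen and in both GelMA gels, so their levels and their differences between gels and lines are given as descriptions with no p-value. Both cell lines of the study, BXPC3 and PANC1, are from human pancreatic ductal adenocarcinoma, and their messenger RNA was sequenced after culture within collagen, 5% GelMA or 7.5% GelMA. GelMA is gelatin methacryloyl, a modified gelatin that forms a hydrogel, and its percentage is the concentration given in the labels. All 6 groups (BXPC3 in collagen, in 5% GelMA and in 7.5% GelMA, and PANC1 in the same 3 matrices) held 2 libraries each and shared a high glucose DMEM medium with 10% foetal bovine serum and 1% penicillin/streptomycin. Each line is a single established line, and no drug or genetic change was listed. Nothing in the labels says whether the 2 libraries of a group came from separate cultures. Every standard error below therefore measures library-to-library spread, and this may be technical. These errors pool the spread of all 6 groups, in both lines. Replicates of the 9 genes often lay close in PANC1, as for SPRR2D in collagen (SD 0.062 log2, beside 1.79 in BXPC3). For such genes the error can understate the spread in BXPC3. The same holds for other genes whose PANC1 replicates lay close, and their adjusted p can then be too low.

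Keratinocytes that leave the basal layer build the cornified envelope, a layer of cross-linked protein under the plasma membrane that takes the place of the membrane in dead surface cells. Involucrin (IVL) is laid down early as a scaffold, the small proline-rich proteins (SPRR) bridge other envelope proteins, and transglutaminases form the cross-links between them. Filaggrin (FLG) and cornulin (CRNN) belong to the S100 fused-type proteins, which start with a calcium-binding S100 domain and continue in long repeats; filaggrin bundles keratin filaments in the skin, and cornulin is best known from the oesophagus. A normal pancreatic duct is lined by simple epithelium and forms no cornified layer, while SPRR1A and SPRR1B are also known as genes that injured or stressed epithelia switch on.

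On GRCh38, with the gene models of GENCODE 29, the 9 genes ran over 0.76 Mb of chromosome 1, from 152302175 to 153057537, in the order FLG, CRNN, CRCT1, IVL, SPRR1A, SPRR3, SPRR1B, SPRR2D and SPRR2A. IVL, the 3 genes SPRR1A, SPRR1B and SPRR3, and CRCT1 are on the plus strand, and the other 4 are on the minus strand. All 9 are protein-coding. FLG shares 704 exonic bases with an antisense gene, FLG-AS1, that is also in the table, and CRNN lies within FLG-AS1 with 0 exonic bases in common. Of all 50-base stretches in the transcripts of SPRR2A, 32.7% also occur in another gene, chiefly other SPRR2 genes, and the share was 19.3% for SPRR2D, 11.3% for SPRR1A (with SPRR1B) and 4.4% for SPRR1B. The values of SPRR2A and SPRR2D are therefore uncertain where reads could have been assigned to either copy, and 5.8% of the 50-base stretches of FLG also occur in FLG-AS1, where reads of either gene cannot be told apart, since no strand setting is given. For SPRR3, IVL, CRNN and CRCT1 the share was 0.0%.

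The stretch just before the transcription start is shown for 5 of the genes because the 3 that stood higher in GelMA than in collagen in BXPC3 (SPRR1A, SPRR1B and CRNN) and 2 that did not (SPRR2A and FLG) can be compared in it. The sequences are the 250 bases before the start site in RefSeq on GRCh38.p14, which had an entry for 7 of the 9 genes, and run 5′ to 3′ toward the gene. Capitals mark TGANTCA, where N is any base, the pattern searched for the site bound by the AP-1 factors of the JUN and FOS families. The pattern covers both strands, although a single match need not read the same on each. The windows are chr1:152983831-152984080 on the plus strand, chr1:153030953-153031202 on the plus strand, chr1:152414264-152414513 on the minus strand, chr1:153057513-153057762 on the minus strand and chr1:152325240-152325489 on the minus strand.
SPRR1A: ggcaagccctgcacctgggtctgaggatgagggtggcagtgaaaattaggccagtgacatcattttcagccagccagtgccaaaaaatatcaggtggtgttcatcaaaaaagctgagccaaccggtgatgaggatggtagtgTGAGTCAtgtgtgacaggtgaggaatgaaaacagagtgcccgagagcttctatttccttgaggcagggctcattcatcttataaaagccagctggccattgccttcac
SPRR1B: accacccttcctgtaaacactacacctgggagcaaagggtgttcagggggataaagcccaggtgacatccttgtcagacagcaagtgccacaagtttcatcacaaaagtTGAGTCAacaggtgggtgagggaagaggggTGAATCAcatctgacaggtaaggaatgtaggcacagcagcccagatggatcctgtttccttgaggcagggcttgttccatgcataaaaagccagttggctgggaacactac
CRNN: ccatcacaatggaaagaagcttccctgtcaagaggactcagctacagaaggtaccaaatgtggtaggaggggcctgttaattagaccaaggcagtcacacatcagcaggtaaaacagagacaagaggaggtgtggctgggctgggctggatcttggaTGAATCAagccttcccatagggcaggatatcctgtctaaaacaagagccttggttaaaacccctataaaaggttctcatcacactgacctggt
SPRR2A: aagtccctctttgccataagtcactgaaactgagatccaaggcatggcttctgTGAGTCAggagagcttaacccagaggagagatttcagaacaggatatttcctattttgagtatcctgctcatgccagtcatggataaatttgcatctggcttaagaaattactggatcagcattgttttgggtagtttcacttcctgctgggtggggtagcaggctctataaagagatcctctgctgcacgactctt
FLG: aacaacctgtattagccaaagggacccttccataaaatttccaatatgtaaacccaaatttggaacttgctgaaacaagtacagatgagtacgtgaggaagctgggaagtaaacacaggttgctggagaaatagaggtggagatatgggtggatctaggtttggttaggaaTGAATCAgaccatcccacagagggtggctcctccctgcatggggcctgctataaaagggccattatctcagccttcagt

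All 7 genes with a RefSeq window (these 5, SPRR3 and IVL) held at least 1 match to the AP-1 pattern TGANTCA, against 6.57% of 35116 windows of the same length before all genes of that table. SPRR1B alone among them held 2, TGAGTCA and TGAATCA. The match read TGAGTCA in SPRR1A, SPRR2A, SPRR3 and IVL, and TGAATCA in FLG and CRNN. The matches began between 79 bases before the start in FLG and 197 bases before it in SPRR2A. A TATA box, searched as TATAAA on both strands, was in 6 of the 7 windows, 29 or 30 bases before the start, against 10.7% of all windows, and SPRR1B was the gene without that run of letters. The octamer ATTTGCAT, searched on both strands, occurred in 1 of the 7 (SPRR2A) and in 1.63% of all windows. The Grainyhead-like motif AACCNGTT, also on both strands, occurred in 0 of the 7 and in 1.49% of all windows. The same AP-1 letters thus stand before genes that were higher in GelMA and before genes that were not. SPRR1A and SPRR1B, whose proteins are close relatives, had 172 identical bases over 268 aligned columns of these windows (64.2%), and SPRR1A and SPRR2A had 48.9%. The plot of motif positions shows how the sites line up.

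**Figure D1:**
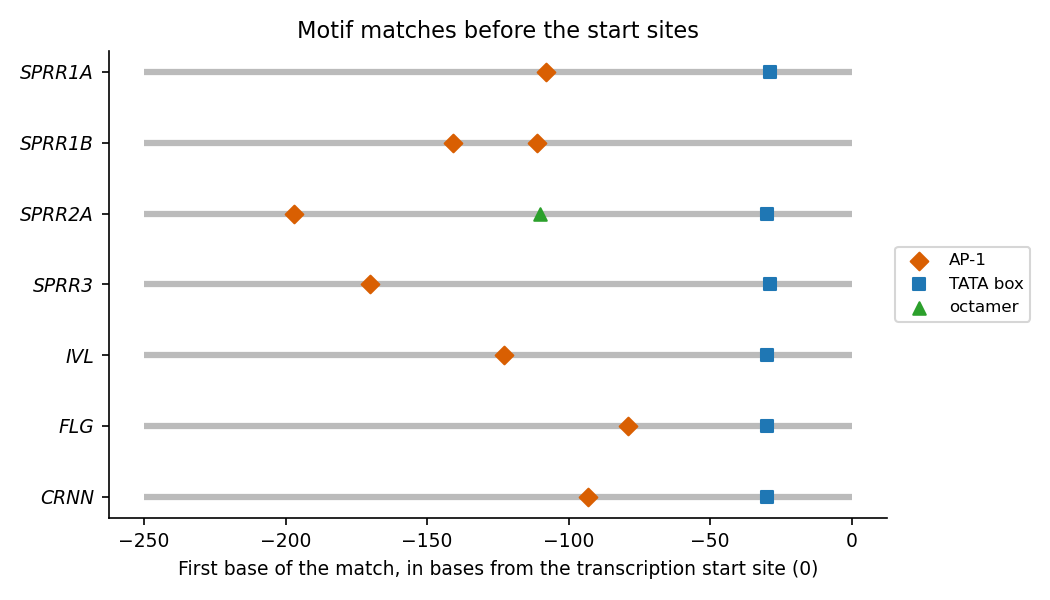
Positions of the motif matches in the 250 bases before the start sites of 7 genes; the x axis gives the first base of each match in bases from the transcription start site. Matches to the AP-1 pattern TGANTCA (orange diamonds) lie between 79 and 197 bases before the start, and TATA boxes (blue squares) lie 29 or 30 bases before it in 6 of the 7 genes.

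The table holds log2 RPKM (reads per kilobase of gene, scaled to library size), so a level of 0 is 1 RPKM and a difference of 1 is a doubling. Depth per library is unknown, because the values keep no read totals. Within a group, the 2 libraries correlated at 0.992 to 0.995 over all genes, and the SD of their difference was 0.295 to 0.364 log2. SMAD4, which is known to be deleted in BXPC3, ranged from -5.92 to -5.35 log2 RPKM in BXPC3 and from 3.94 to 4.55 in PANC1. Ductal keratins and other ductal markers summed to between 7421 and 8857 RPKM in BXPC3 libraries and to between 4961 and 7106 RPKM in PANC1 libraries (8 of 9 markers in the table). The immune markers (3 of 6 in the table) summed to between 15.6 and 23.4 RPKM in BXPC3, the endothelial markers (3 of 4) to between 2.56 and 4.12 RPKM, the fibroblast markers (2 of 6) to between 15.3 and 16.1 RPKM and the mesenchymal markers (7 of 8) to between 212 and 274 RPKM. In PANC1 the sums were 5.59 to 8.69 RPKM for immune and 0.228 to 1.42 for endothelial markers. They were 141 to 426 RPKM for fibroblast and 3695 to 4852 for mesenchymal markers. Of the 9 genes, all passed the filter of at least 1 RPKM in at least 2 libraries, and they passed it through BXPC3, since none reached 0.2 RPKM in a PANC1 library.

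In BXPC3 the levels per kilobase spanned a wide range, and the order over the mean of the 6 libraries was SPRR1A, SPRR1B, SPRR3, FLG, IVL, SPRR2A, SPRR2D, CRCT1 and CRNN. SPRR1A, with a mean of 9.62 ± 0.28 log2 RPKM (SD, n = 6), was above 99.2% of all genes in the table, and SPRR1B, with 9.48 ± 0.38, stood beside it. SPRR3, an SPRR protein of the mouth and oesophagus lining, averaged 6.97 ± 0.16 and was above 92.0% of all genes. FLG averaged 4.63 ± 0.47 and IVL 3.59 ± 0.19. SPRR2A (2.67 ± 0.74), SPRR2D (2.15 ± 0.94), CRCT1 (1.47 ± 0.40) and CRNN (1.01 ± 0.82) were the lowest, and CRNN was above 19.3% of genes. SPRR1A and SPRR1B overlapped in their levels, as did each neighbouring pair from IVL to CRNN, so that the order within these groups lies inside their spread. SPRR1A and SPRR1B together held between 84.9% and 91.7% of the summed RPKM of the 9 genes in each BXPC3 library. GENCODE 29 gives SPRR1A only 270 exonic bases, and the sources used here do not give the gene lengths behind the deposited values, so a level of one gene relative to another carries that uncertainty.

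**Figure D2:**
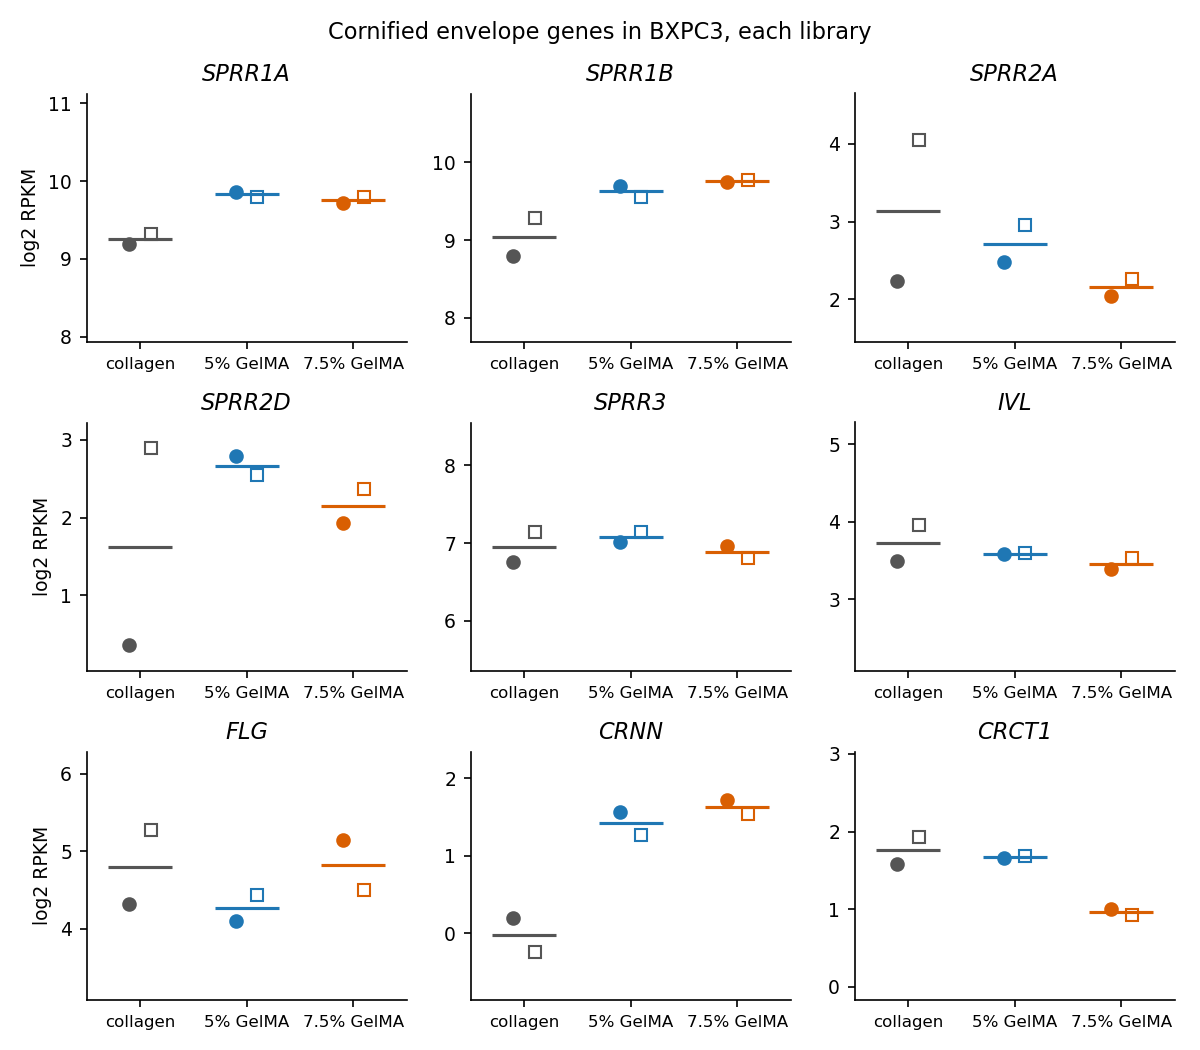
Level of each of the 9 genes in each BXPC3 library (log2 RPKM, y axis; every panel spans the same number of log2 units) by matrix; filled circles are replicate 1, open squares replicate 2 and horizontal bars the mean of the 2 libraries. SPRR1A, SPRR1B and CRNN lie higher in both GelMA gels than in collagen, CRCT1 is lowest in 7.5% GelMA, and the collagen libraries of SPRR2A and SPRR2D lie farthest apart.

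Against collagen, 3 of the 9 genes were higher in both GelMA gels in BXPC3, with no overlap between the groups. SPRR1A and SPRR1B, the 2 most abundant, were 1.42 to 1.65 times higher, and CRNN, the least abundant, was 2.70 and 3.12 times higher. CRCT1 was lower in 7.5% GelMA alone. The other 5 genes overlapped with collagen in both gels. The count of 3 genes above every collagen library compares with 32.9% of all tested genes in 5% GelMA and with 34.9% in 7.5% GelMA, and the 1 gene below every collagen library in 7.5% GelMA compares with 32.2%. At an adjusted p under 0.05, limma called 29.9% of all genes in 5% GelMA and 29.8% in 7.5% GelMA in either direction. The median difference over the 9 genes was 0.13 log2 in 5% GelMA and 0.02 log2 in 7.5% GelMA, beside 0.01 log2 in each gel over all 15794 genes tested. Both comparisons share the 2 collagen libraries. The summed ductal markers also differed, with 7421 and 7562 RPKM in collagen, 8624 and 8857 in 5% GelMA and 7913 and 8008 in 7.5% GelMA, and their part in the result was not tested. In these bulk samples, fewer cells that express a gene and less RNA per cell cannot be told apart.

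SPRR1A had levels of 9.20 and 9.32 log2 RPKM in the 2 collagen libraries, 9.86 and 9.80 in 5% GelMA and 9.72 and 9.80 in 7.5% GelMA. Every GelMA library stood above both collagen libraries, and the 2 gels overlapped. The difference from collagen was 0.57 ± 0.08 log2 (SE; 1.49-fold) in 5% GelMA and 0.50 ± 0.08 (1.42-fold) in 7.5% GelMA, and in linear terms the level went from 587 and 639 RPKM in collagen to between 843 and 930 RPKM in GelMA.

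SPRR1B, the close relative of SPRR1A, had levels of 8.80 and 9.28 log2 RPKM in collagen, 9.70 and 9.56 in 5% GelMA and 9.74 and 9.78 in 7.5% GelMA. All 4 GelMA libraries were higher than both collagen libraries, but the collagen libraries lay farther apart than those of SPRR1A. The difference was 0.59 ± 0.22 log2 (1.51-fold) in 5% GelMA and 0.72 ± 0.22 (1.65-fold) in 7.5% GelMA. Without replicate 1 of collagen it was 0.35 and 0.48, and without replicate 2 it was 0.83 and 0.96.

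CRNN had levels of 0.20 and -0.23 log2 RPKM in collagen, 1.56 and 1.27 in 5% GelMA and 1.72 and 1.53 in 7.5% GelMA. Both gels stood clear of collagen, and they overlapped with each other. The difference was 1.43 ± 0.27 log2 (2.70-fold) in 5% GelMA and 1.64 ± 0.27 (3.12-fold) in 7.5% GelMA, the largest of the 9 genes in both gels, although the level stayed between 2.41 and 3.29 RPKM in GelMA. Over the 6 BXPC3 libraries, which come from 3 groups of 2, the level of CRNN correlated with that of SPRR1A at r = 0.91 and with that of SPRR1B at 0.83, and that of SPRR1A with that of SPRR1B at 0.92.

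CRCT1, the cysteine-rich C-terminal protein 1 gene beside CRNN in the late cornified envelope region, had levels of 1.59 and 1.93 log2 RPKM in collagen, 1.66 and 1.69 in 5% GelMA and 1.01 and 0.93 in 7.5% GelMA. Only the libraries of 7.5% GelMA stood apart, below all others. The difference from collagen was -0.08 ± 0.22 log2 in 5% GelMA and -0.79 ± 0.22 in 7.5% GelMA (0.58-fold), and 7.5% GelMA differed from 5% GelMA by -0.71 ± 0.22.

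The 2 SPRR2 genes depended on a single collagen library. SPRR2A had levels of 2.24 and 4.05 log2 RPKM in collagen, 2.48 and 2.96 in 5% GelMA and 2.05 and 2.26 in 7.5% GelMA. SPRR2D had levels of 0.36 and 2.89 in collagen, 2.79 and 2.55 in 5% GelMA and 1.94 and 2.37 in 7.5% GelMA. For both genes, all GelMA libraries fell between the 2 collagen libraries, apart from replicate 1 of 7.5% GelMA for SPRR2A, which was lower than both. In 5% GelMA the difference from collagen was -0.43 ± 0.46 log2 for SPRR2A and 1.05 ± 0.61 for SPRR2D, both wide. Without replicate 1 of collagen these became -1.33 and -0.22, and without replicate 2 they became 0.48 and 2.31, so the direction turned with the library for each gene. In 7.5% GelMA the difference of SPRR2A was -0.99 ± 0.46, and -1.89 or -0.08 without replicate 1 or 2 of collagen, while that of SPRR2D was 0.53 ± 0.61, and -0.74 or 1.80.

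The 2 collagen libraries of BXPC3 differed in these genes more than in most. In 8 of the 9 genes replicate 2 was higher than replicate 1, all but CRNN, beside 48.2% of all genes tested. The gap exceeded 1 log2 in SPRR2D (2.54) and SPRR2A (1.81), beside 2.83% of all genes, and the median gap over the 9 genes was 0.47 against 0.11 over all genes. In 5% and 7.5% GelMA the median gap between replicates over the 9 genes was 0.14 and 0.16.

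SPRR3, IVL and FLG showed no separation from collagen. SPRR3 had levels of 6.76 and 7.14 log2 RPKM in collagen, 7.01 and 7.14 in 5% GelMA and 6.97 and 6.81 in 7.5% GelMA, with differences of 0.13 ± 0.15 and -0.06 ± 0.15. IVL had levels of 3.49 and 3.96 in collagen, 3.58 and 3.60 in 5% GelMA and 3.39 and 3.53 in 7.5% GelMA, with differences of -0.14 ± 0.22 and -0.26 ± 0.22. The early scaffold gene thus stayed within 0.57 log2 over the 6 libraries, and its level correlated with that of SPRR2A at r = 0.98 (6 libraries), where replicate 2 of collagen was the highest for both. FLG had levels of 4.33 and 5.27 in collagen, 4.10 and 4.44 in 5% GelMA and 5.14 and 4.50 in 7.5% GelMA, with differences of -0.53 ± 0.45 and 0.02 ± 0.45. FLG and CRNN, which belong to the same protein family and whose lower coordinates lie 107.1 kb apart, therefore did not move alike: their levels correlated at r = -0.31 over the 6 libraries.

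**Figure D3:**
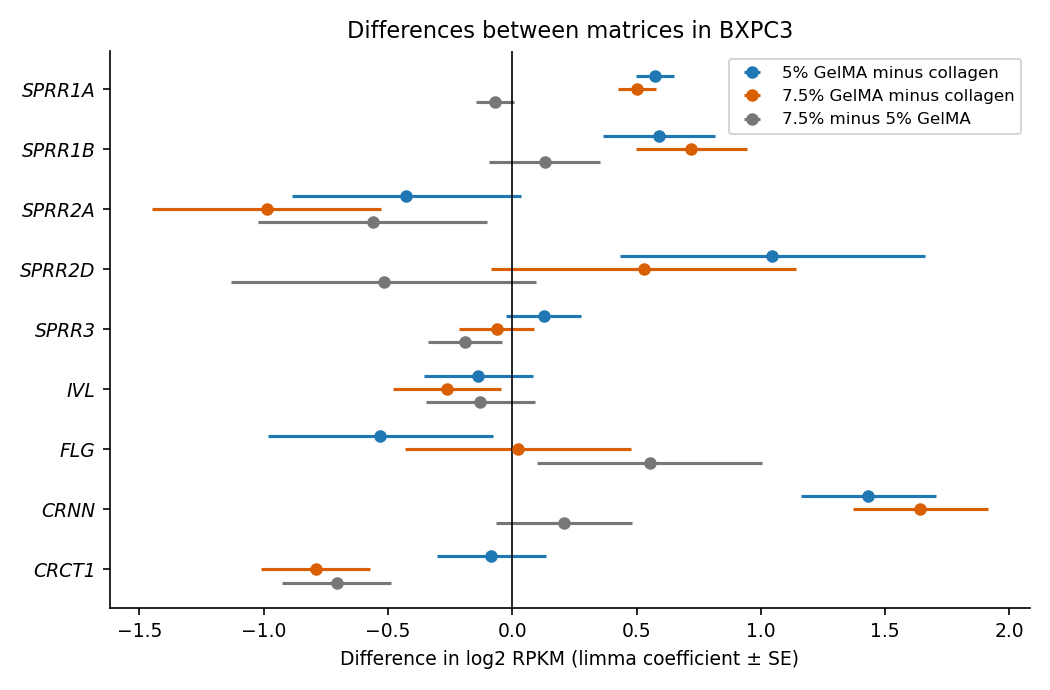
Difference between matrices in BXPC3 for each of the 9 genes (x axis, difference in log2 RPKM); points are limma coefficients and bars their standard errors, from 2 libraries a group. CRNN has the largest differences from collagen (1.43 in 5% GelMA and 1.64 in 7.5% GelMA), SPRR1A has the narrowest error, and the bars of SPRR2D are the widest.

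Between the 2 GelMA gels the genes of BXPC3 lay closer together. From 5% to 7.5% GelMA, differences of the 9 genes ran from -0.71 ± 0.22 log2 for CRCT1 to 0.55 ± 0.45 for FLG, with a median of -0.13 beside 0.01 over all genes. SPRR1B and FLG were higher in both 7.5% GelMA libraries than in both 5% GelMA libraries, beside 20.9% of all genes. SPRR2A, SPRR2D, SPRR3, IVL and CRCT1 were lower in both, which is 5 of 9 genes beside 20.2% of all genes. CRCT1 differed by 3.21 times its standard error, and the next largest ratio was 1.26, for SPRR3. Over all genes, limma called 0.0823% (13 of 15794) in this comparison, and of the related epidermal genes described below it called 0 of 132 (19 at an unadjusted p under 0.05). No share of all genes is given at the unadjusted threshold, so the 19 cannot be set against one.

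The gene stretch around the 9 genes was described next, because it holds the other genes of the epidermal differentiation complex. Of 53 such genes on the list, 18 were in the table and 17 were tested. In 5% GelMA 5 of these 17 rose and 1 fell against collagen, and in 7.5% GelMA 4 rose and 1 fell, where limma called 29.9% and 29.8% of all genes. The median difference over the 17 genes was 0.17 log2 in 5% GelMA and 0.30 log2 in 7.5% GelMA. RPTN, which encodes repetin, a further S100 fused-type protein, had levels of 1.45 and 1.79 log2 RPKM in collagen, 3.20 and 2.58 in 5% GelMA and 3.28 and 3.63 in 7.5% GelMA. All GelMA libraries stood above collagen, and RPTN rose by 1.27 ± 0.28 log2 in 5% GelMA (limma, adjusted p = 0.0076) and by 1.83 ± 0.28 in 7.5% GelMA (adjusted p = 0.0011). TCHH, which encodes trichohyalin of the hair follicle and is of the same family, had levels of 2.41 and 2.49 in collagen, 3.01 and 3.25 in 5% GelMA and 3.45 and 3.37 in 7.5% GelMA. TCHH rose by 0.68 ± 0.16 in 5% GelMA (limma, adjusted p = 0.011) and by 0.96 ± 0.16 in 7.5% GelMA (adjusted p = 0.0019). The lower coordinates of RPTN and TCHH lie at -148.6 and -195.9 kb from that of FLG, on the side away from CRNN.

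Further along, SPRR2C, listed as a pseudogene, had levels of 2.01 and 3.28 log2 RPKM in collagen, 3.33 and 3.31 in 5% GelMA and 3.95 and 4.09 in 7.5% GelMA, and rose by 1.37 ± 0.33 in 7.5% GelMA (limma, adjusted p = 0.011). Like SPRR2A and SPRR2D it was higher in replicate 2 of collagen, and its value is uncertain where reads could belong to another SPRR2 gene. The errors of SPRR2C and RPTN also pool PANC1 replicates that lay close at very low levels. In PANC1 collagen these were -2.09 and -2.10 log2 RPKM for SPRR2C and -4.67 and -4.59 for RPTN. Their errors can therefore understate the spread in BXPC3, and their adjusted p can be too low. S100A13, a small calcium-binding protein gene, had levels of 2.48 and 2.73 in collagen and between 1.76 and 1.90 in GelMA, and fell by 0.77 ± 0.21 log2 in both gels (limma, adjusted p = 0.019 in each). S100A1 rose by 1.01 ± 0.33 in 5% GelMA (limma, adjusted p = 0.044) at levels of -3.54 to -1.93 log2 RPKM, so that its fold depends on the unknown offset of the deposited log values. Several of these calls ended when 1 library was left out, with the direction unchanged. For S100A13 the limma adjusted p was 0.11, 0.054 and 0.089 in 5% GelMA and 0.11, 0.056 and 0.11 in 7.5% GelMA without replicate 2 of collagen, replicate 1 of the gel and replicate 2 of the gel. It was 0.065 for RPTN in 5% GelMA without replicate 1 of that gel, 0.072 for TCHH there without replicate 2, and 0.072 for SPRR2C without replicate 2 of 7.5% GelMA. For S100A1 it was 0.22, 0.21 and 0.058 without replicate 1 of collagen, replicate 1 of the gel and replicate 2 of the gel.

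**Figure D4:**
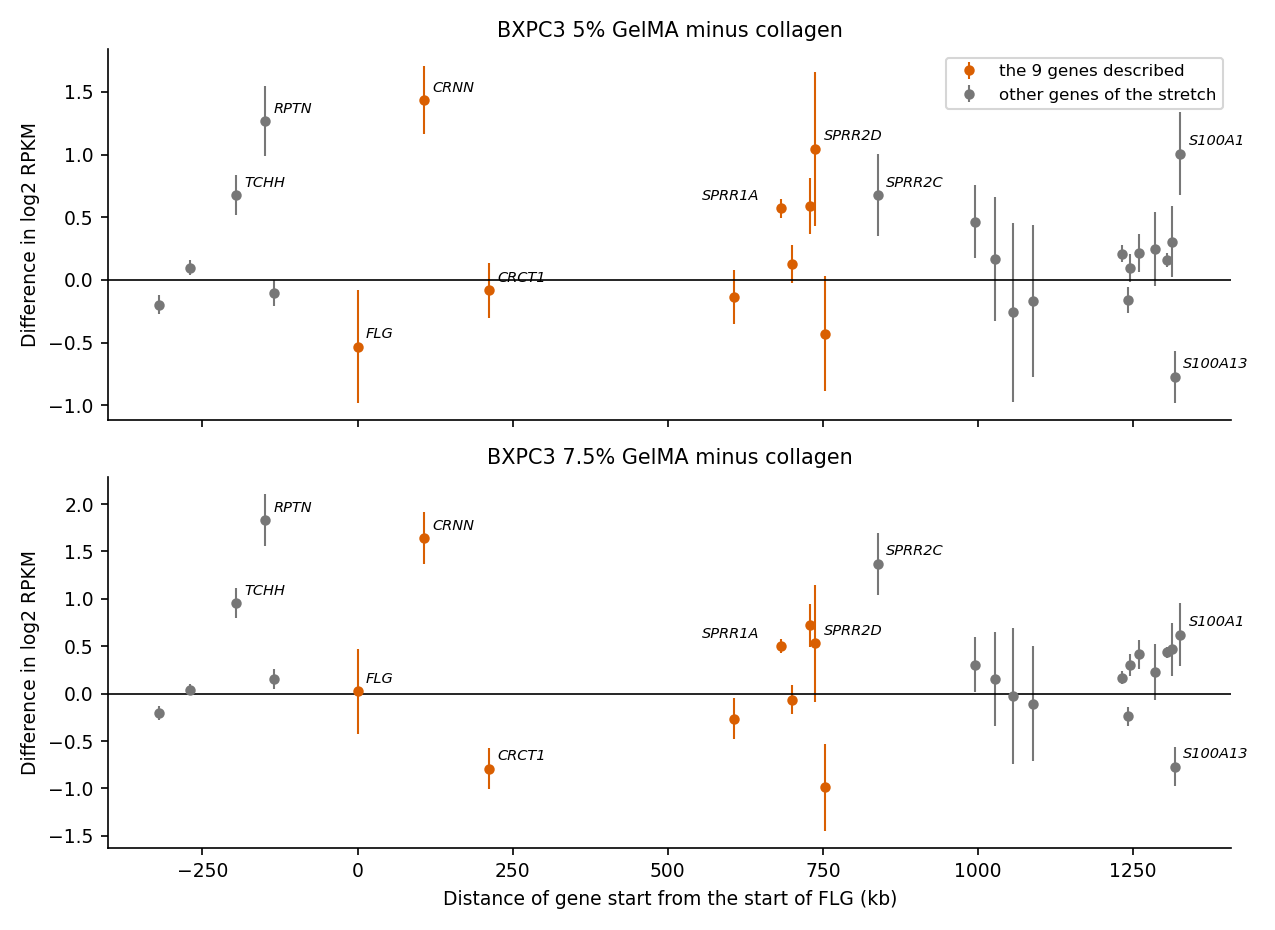
Difference in log2 RPKM between GelMA and collagen in BXPC3 (y axis; points are limma coefficients, bars standard errors) for the tested genes of the epidermal differentiation complex, by distance of the gene start from that of FLG (x axis, kb); upper panel 5% GelMA, lower panel 7.5% GelMA. The gene start is the lower coordinate of each gene, whatever its strand. TCHH, RPTN and CRNN stand high on either side of FLG, which lies at -0.53 and 0.02, and S100A13 at the far end is lowest of the S100 genes.

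The enzymes and scaffold proteins that act on these envelope proteins moved in both directions in BXPC3. Of 15 tested genes on the list of cross-linking and scaffold genes, 1 rose and 1 fell in 5% GelMA, and 3 rose and 3 fell in 7.5% GelMA. In each gel limma called 16.1% of all genes higher and 13.7% lower. TGM1, the membrane-bound transglutaminase of the cornified envelope, had levels of 1.03 and 1.84 log2 RPKM in collagen, 0.42 and 0.30 in 5% GelMA and 0.52 and 0.53 in 7.5% GelMA. TGM1 fell by 1.08 ± 0.27 log2 in 5% GelMA (limma, adjusted p = 0.015) and by 0.91 ± 0.27 in 7.5% GelMA (adjusted p = 0.031). Without replicate 2 of collagen the differences of TGM1 were -0.67 and -0.51 (limma, adjusted p = 0.10 and 0.21). The adjusted p was also over 0.05 without either GelMA library (0.052 and 0.067 in 5% GelMA, 0.11 and 0.11 in 7.5% GelMA). TGM2, the tissue transglutaminase found in many cell types, had levels of 8.53 and 8.29 in collagen, 9.15 and 8.94 in 5% GelMA and 8.74 and 8.84 in 7.5% GelMA. It rose by 0.64 ± 0.08 (limma, adjusted p = 0.00054) and by 0.39 ± 0.08 (adjusted p = 0.0066; 0.056 without replicate 2 of 7.5% GelMA). CNFN, which encodes the envelope protein cornifelin, fell by 1.22 ± 0.23 in 7.5% GelMA (limma, adjusted p = 0.0032), from 0.86 and 1.02 in collagen to -0.05 and -0.51. KAZN, a scaffold gene of the desmosome and envelope, rose by 0.58 ± 0.19 there (limma, adjusted p = 0.046; 0.28, 0.18 and 0.11 without replicate 1 of collagen, replicate 1 of the gel and replicate 2 of the gel).

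Keratins of stratified epithelia moved in both directions in BXPC3. Of 12 tested, 2 rose and 3 fell in 5% GelMA, beside 29.9% of all genes called in either direction, and 1 rose and 1 fell in 7.5% GelMA, beside 29.8%. KRT14, a basal-layer keratin, fell by 1.33 ± 0.35 log2 in 5% GelMA (limma, adjusted p = 0.017), and KRT13, a keratin of mucosal squamous cells, by 0.53 ± 0.17 (adjusted p = 0.040). Without replicate 2 of collagen, replicate 1 of the gel or replicate 2 of the gel, the adjusted p of KRT14 was 0.11, 0.082 and 0.057 (limma). That of KRT13 was 0.073, 0.18 and 0.28 without replicate 1 of collagen, replicate 2 of collagen and replicate 1 of the gel. KRT15 fell by 0.33 ± 0.07 in 5% GelMA (limma, adjusted p = 0.0052) and by 0.34 ± 0.07 in 7.5% GelMA (adjusted p = 0.0040). KRT80 rose by 0.90 ± 0.11 in 5% GelMA (limma, adjusted p = 0.00050). KRT10, the main keratin of the upper epidermis, rose by 0.31 ± 0.08 in 5% GelMA (limma, adjusted p = 0.015) and by 0.24 ± 0.08 in 7.5% GelMA (adjusted p = 0.041). Its call in 7.5% GelMA ended without any 1 of the 4 libraries compared, with differences of 0.195 to 0.293.

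AP-1 is formed by factors of the JUN and FOS families, and the pattern searched for its site stands before all 7 genes with a window. Of the 7 tested JUN and FOS genes, 1 rose (JUND), 2 fell (FOS and FOSL2) and 4 were not called (JUN, JUNB, FOSB and FOSL1) in 5% GelMA. In 7.5% GelMA 1 rose (JUND), 4 fell (FOS, FOSL2, FOSB and JUNB) and 2 were not called (JUN and FOSL1). Beside these counts, 16.1% of all genes were called higher and 13.7% lower in each gel. JUND had levels of 6.30 and 5.98 log2 RPKM in collagen, 7.15 and 6.998 in 5% GelMA and 7.06 and 7.13 in 7.5% GelMA, and rose by 0.94 ± 0.09 (limma, adjusted p = 0.00012) and by 0.95 ± 0.09 (adjusted p = 9.7e-05). FOS had levels of 6.65 and 6.97 in collagen, 6.12 and 6.27 in 5% GelMA and 5.98 and 6.01 in 7.5% GelMA, and fell by 0.62 ± 0.11 (limma, adjusted p = 0.0027) and by 0.81 ± 0.11 (adjusted p = 0.00061). FOSL2 fell by 0.56 ± 0.08 in 5% GelMA (limma, adjusted p = 0.00074). Whether these factors bear on the 9 genes was not tested. Of 29 tested squamous transcription factors, 2 rose and 3 fell in 5% GelMA, and 2 rose and 8 fell in 7.5% GelMA. The same shares of all genes apply, 16.1% called higher and 13.7% called lower in each gel. MAF, a factor of late keratinocyte differentiation, fell by 0.56 ± 0.17 in 5% GelMA (limma, adjusted p = 0.033). Its call there ended without replicate 2 of collagen, replicate 1 of the gel or replicate 2 of the gel. The differences were then -0.41, -0.63 and -0.50. Its levels were 4.91 and 5.21 log2 RPKM in collagen, 4.56 and 4.43 in 5% GelMA and 4.32 and 4.39 in 7.5% GelMA. PRDM1, a factor of terminal differentiation, fell by 0.72 ± 0.14 in 7.5% GelMA (limma, adjusted p = 0.0036). HOPX fell by 1.70 ± 0.50 in 7.5% GelMA (limma, adjusted p = 0.027), at levels of -5.25 to -2.74 log2 RPKM where its fold depends on the unknown offset. Without replicate 2 of collagen, replicate 1 of the gel or replicate 2 of the gel, its adjusted p was 0.18, 0.086 and 0.11.

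In the remaining lists most calls in BXPC3 were downward, in counts of a few genes each. Over all genes, limma called 16.1% higher and 13.7% lower in each gel. Of 18 tested late proteases and inhibitors, 1 rose and 2 fell in 5% GelMA, and 2 fell in 7.5% GelMA. CTSV rose by 0.31 ± 0.10 log2 in 5% GelMA (limma, adjusted p = 0.047). Its call ended without either collagen library or either library of the gel. TMPRSS11D, a serine protease of airway and squamous epithelium, fell by 1.13 ± 0.30 log2 in 5% GelMA and by 1.19 ± 0.30 in 7.5% GelMA (limma, adjusted p = 0.019 and 0.015). Its adjusted p was 0.11, 0.071 and 0.072 in 5% GelMA and 0.095, 0.085 and 0.053 in 7.5% GelMA without replicate 2 of collagen, replicate 1 of the gel and replicate 2 of the gel. CASP14, the caspase of cornifying cells, was the other gene that fell, by 1.72 ± 0.54 and by 1.73 ± 0.54 (limma, adjusted p = 0.038 and 0.037), at levels of -4.80 to -2.07 log2 RPKM where the fold depends on the unknown offset. Without replicate 2 of collagen its adjusted p was 0.24 in each gel, and without a library of the gel it was between 0.10 and 0.13.

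Of 11 tested mucosal squamous genes, 1 rose and 3 fell in 5% GelMA, and 2 fell in 7.5% GelMA. The share of all genes in each gel was 16.1% called higher and 13.7% called lower. ANXA9 rose by 0.56 ± 0.16 log2 in 5% GelMA (limma, adjusted p = 0.027). Its call ended without either collagen library or either library of the gel. ECM1, a secreted matrix protein gene, fell by 0.82 ± 0.19 log2 and by 0.81 ± 0.19 (limma, adjusted p = 0.011 and 0.012). Its adjusted p was 0.072 and 0.075 without replicate 2 of collagen, 0.079 and 0.051 without replicate 1 of the gel, and 0.061 in 7.5% GelMA without replicate 2 of the gel. EMP1, an epithelial membrane protein gene, fell by 0.46 ± 0.09 and by 0.43 ± 0.09 (limma, adjusted p = 0.0033 and 0.0045). Of 12 tested desmosomal cadherin and tight junction genes, 1 rose and 2 fell in 5% GelMA, and 2 fell in 7.5% GelMA. OCLN rose by 0.38 ± 0.10 in 5% GelMA (limma, adjusted p = 0.015). Its call ended without replicate 1 of collagen or either library of the gel. CDH3, which encodes P-cadherin, fell by 0.64 ± 0.07 and by 0.43 ± 0.07 (limma, adjusted p = 0.00023 and 0.0014).

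Of 10 tested retinoid response genes, 1 rose and 2 fell in 5% GelMA, and 3 fell in 7.5% GelMA. Here too the share of all genes was 16.1% called higher and 13.7% called lower in each gel. STRA6 rose by 0.72 ± 0.21 log2 in 5% GelMA (limma, adjusted p = 0.028). Its call ended without either collagen library or replicate 2 of the gel. The retinoid receptor gene RXRA fell by 0.35 ± 0.05 log2 and by 0.36 ± 0.05 (limma, adjusted p = 0.00057 and 0.00047), and RARG fell by 0.33 ± 0.04 and by 0.28 ± 0.04 (adjusted p = 0.00058 and 0.0011). Of 9 tested barrier lipid genes, 1 rose in 5% GelMA, and 1 rose and 1 fell in 7.5% GelMA. ABHD5, a lipase activator needed for skin barrier lipids, was the gene that rose, by 0.45 ± 0.07 and by 0.49 ± 0.07 (limma, adjusted p = 0.0011 and 0.00067).

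Over all 9 related lists together, which hold 132 tested genes beside the 9, limma called 15 higher and 16 lower in 5% GelMA and 11 higher and 23 lower in 7.5% GelMA in BXPC3, where it called 16.1% of all genes higher and 13.7% lower in each gel. Without 1 library these counts ran from 7 to 14 higher and from 7 to 20 lower in 5% GelMA, and from 7 to 12 higher and from 10 to 27 lower in 7.5% GelMA.

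In PANC1 all 9 genes stood near the bottom of the table. They lay between -5.95 and -2.38 log2 RPKM in the 6 PANC1 libraries, and the highest value, that of SPRR1A in collagen, was 0.192 RPKM. Their sum was between 0.671 and 0.983 RPKM per library, against 1182 to 1937 RPKM in BXPC3. Over all 3 matrices the difference PANC1 minus BXPC3 was -12.49 log2 for SPRR1B, -12.29 for SPRR1A and -4.74 for CRCT1, the smallest of the 9, with a median of -7.95 beside 0.12 over all genes. Every PANC1 library was lower than every BXPC3 library for each of the 9 genes. The PANC1 levels of the 9 genes followed gene length, with a Pearson r of -0.94 between level and log2 exonic length (GENCODE 29) across the 9 genes, against -0.33 for their BXPC3 levels. The unknown offset also enters values this low, so the size of each difference between the lines and the order of the genes by it are uncertain. This contrast bore on most of the transcriptome, with 91.8% of all genes called by limma in either direction and 41.9% called lower, so most genes differ between these lines.

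Of the 132 tested related epidermal genes of all 9 lists, 104 were called lower in PANC1 than in BXPC3, 24 were called higher and 4 were not called (limma). Of the 15 tested cross-linking and scaffold genes 14 were lower and 1 was higher than in BXPC3, and of the 12 tested keratins 10 were lower and 1 was higher. Beside these counts, 91.8% of all genes were called in either direction and 41.9% were called lower. KRT6A, a keratin of wounded and stratified epithelium, differed by -15.51 ± 0.24 log2 (PANC1 minus BXPC3) and KRT5, the basal-layer partner of KRT14, by -14.82 ± 0.27. TP63, the master factor of stratified epithelium, differed by -8.25 ± 0.13, with levels of 7.26 to 7.55 log2 RPKM in BXPC3. RPTN differed by -7.47 ± 0.16. In PANC1 the levels ran from -5.05 to -3.22 log2 RPKM for KRT6A and from -3.87 to -1.43 for KRT5. They ran from -2.33 to 0.11 for TP63 and from -4.997 to -4.59 for RPTN. KRT6A, KRT5, TP63 and RPTN passed the filter only through BXPC3, so no p-value is given for them. The unknown offset enters the size of these differences. The counts above include such genes, which the filter let in only because they reached 1 RPKM in BXPC3. Other genes went the other way, and 3 of them are named here after their values were seen. S100A6 and S100A4, calcium-binding protein genes at the end of the same complex, were higher in PANC1 by 0.96 ± 0.04 and 1.51 ± 0.06 log2 (limma, adjusted p = 1.23e-09 and 9.24e-10). GRHL3, a Grainyhead-like factor of epidermal differentiation, was higher by 1.91 ± 0.06 (limma, adjusted p = 2.25e-10) as a mean over the 3 matrices. Its PANC1 means were 3.36 log2 RPKM in collagen, 5.30 in 5% GelMA and 5.53 in 7.5% GelMA. In BXPC3 they were 2.93, 3.08 and 2.45, so the gap was smallest in collagen.

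**Figure D5:**
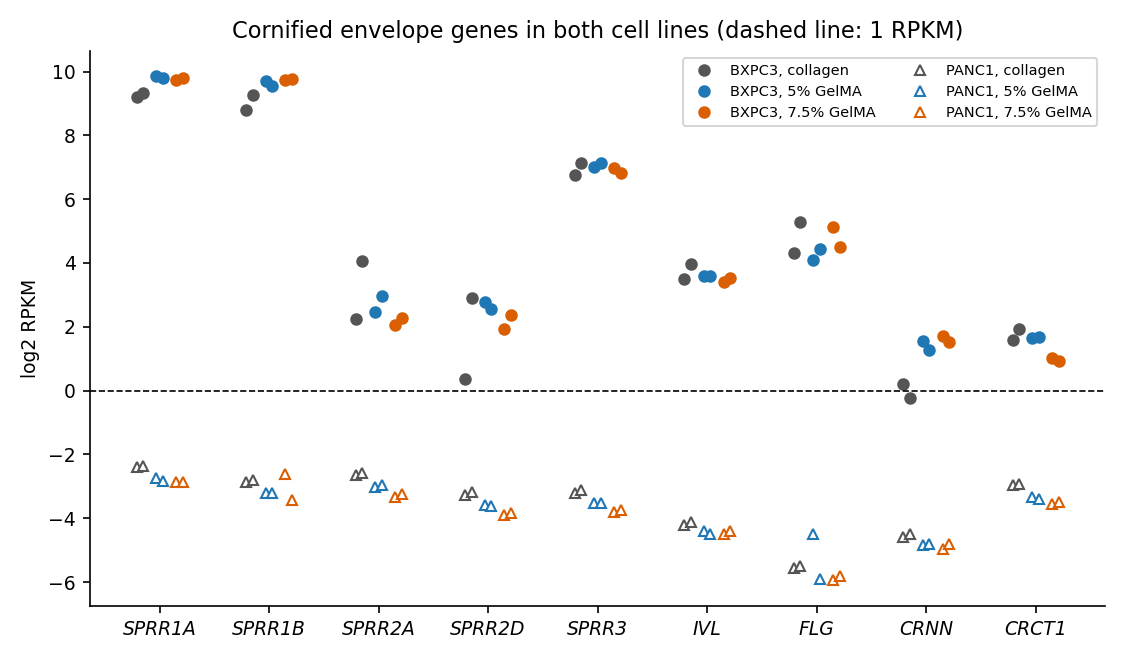
Level of the 9 genes (log2 RPKM, y axis) in every library of BXPC3 (filled circles) and PANC1 (open triangles), coloured by matrix; the dashed line marks 1 RPKM. All PANC1 values lie under 0.2 RPKM, and the BXPC3 values run from 0.851 RPKM for CRNN in collagen to 930 RPKM for SPRR1A in 5% GelMA.

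Within PANC1 the values of the 9 genes were mostly lower in the gels than in collagen, by small steps at the bottom of the table. In 8 of the 9 genes both libraries of 5% GelMA were lower than both collagen libraries, beside 39.3% of all genes, and in 8 of 9 both libraries of 7.5% GelMA were, beside 39.5%. The exceptions were FLG in 5% GelMA, with -4.50 and -5.89 log2 RPKM against -5.55 and -5.50 in collagen, and SPRR1B in 7.5% GelMA, with -2.61 and -3.42 against -2.87 and -2.80. Differences from collagen over the 9 genes had a median of -0.37 log2 in 5% GelMA and of -0.47 in 7.5% GelMA, beside -0.009 and -0.002 over all genes. The 1224 tested genes under 1 RPKM in every PANC1 library had medians of -0.11 and -0.07. The replicates of the 9 genes lay closer than those of such genes, with a median gap of 0.07 log2 in collagen, 0.06 in 5% GelMA and 0.08 in 7.5% GelMA, against 0.41, 0.40 and 0.38 over those 1224 genes. All of these differences lie under 0.2 RPKM, where a change in RNA and a value set by gene length, library and the unknown offset cannot be told apart. Between 7.5% and 5% GelMA the median of the 9 genes was -0.16.

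The difference between the lines in the effect of GelMA (PANC1 minus BXPC3, mean of both gels against collagen) was -1.85 ± 0.33 log2 for CRNN and -0.97 ± 0.09 for SPRR1A, where the PANC1 side is a shift under 0.2 RPKM. Over the 9 genes its median was -0.51 beside -0.02 over all genes, and limma called 39.1% of all genes in it in either direction. For the difference between lines in the step from 5% to 7.5% GelMA, the median of the 9 genes was 0.06 and limma called 8.97% of all genes.

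The mean profile of the 9 genes over the 6 BXPC3 libraries, with each gene centred and scaled to SD 1, followed SPRR2D (r = 0.96) and SPRR3 (0.89) most closely and CRNN least (0.11). It was lowest in replicate 1 of collagen. The 10 genes outside the 9 whose levels were most like this profile, among 2099 genes with a range of at least 1 log2 over these libraries, were ENSG00000262089 (r = 0.99), C1QL1 (0.98), OR2B6 (0.97), CCDC154 (0.97), FAM21EP (0.94), EPS8L3 (0.94), ENSG00000272054 (0.93), CACNA1I (0.93), WFDC21P (0.92) and NBEAP2 (0.92). These r values are over 6 libraries, and the genes share with the profile the low value in replicate 1 of collagen. C1QL1 (-3.84 to -1.61 log2 RPKM), CCDC154 (-2.84 to -1.20) and CACNA1I (-7.13 to -3.61) stayed under 1 RPKM in every BXPC3 library. The unknown offset enters values this low. None of the 10 is on the list of epidermal differentiation complex genes.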

How the data were processed

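Poly-A RNA of 12 libraries (BXPC3 and PANC1 in collagen, 5% GelMA and 7.5% GelMA, 2 libraries in each of 6 groups) was read from 1 deposited table of log2 RPKM for 16299 Ensembl genes, with 0 value columns left unmapped. HISAT2 2.1.0 and HTSeq with build GRCh38 (hg38) are named per the submitters' processing notes. The gene models, strand setting, gene lengths, log offset and gene filter behind the authors' log2 values go unnamed in the sources used here. Values lay between -8.66 and 13.74, and 13917 ranks were equal within 0.05 log2 in all libraries, so the values were taken to be quantile normalized, which removes a change shared by most genes. Depth is unknown, and no counting interval could be given.

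The 9 genes, the 15 gene lists and the tests were chosen with earlier results of these data known. Symbols came from a table of gene names (16250 IDs) and GENCODE 29 (49 IDs). The 15794 genes that reached 1 RPKM in 2 or more libraries (505 were left out) were fitted with limma 3.58.1 in R 4.3.3: group means over all 12 libraries, a mean-variance trend, 6 residual and 3.89 prior degrees of freedom, and Benjamini-Hochberg adjustment over all tested genes in each comparison. A call is an adjusted p under 0.05. Errors beside differences are limma standard errors, which pool the spread of all 6 groups. The fit was tested on simulated data. Of each list, up to 4 called genes with the largest difference and a group mean of at least 1 RPKM could be named in a comparison; those given stand for their list. The genes most like the 9 were ranked by Pearson r with their mean profile. Motifs were searched in RefSeq windows on GRCh38.p14, and pairs of windows were aligned with Biopython 1.88. Alternatives were another variance model, filter, offset or centring, a replicate block, 1 line alone, and leaving out each library.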

Additional observations from a re-analysis of the deposited data

Results flagged for a closer look

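The effect of GelMA differed between the lines, by a limma test of the difference itself (PANC1 minus BXPC3, mean of both gels against collagen), in 7 of 17 tested genes of the epidermal differentiation complex and in 10 of 15 of the cross-linking list, beside 39.1% of all genes. Given here are, for each list, the 4 largest differences among called genes whose mean reached 1 RPKM in some group. RPTN differed by -1.82 ± 0.34 log2, with effects of 1.55 in BXPC3 and -0.27 in PANC1, where its highest level was -4.59 log2 RPKM. SPRR2C differed by -1.498 ± 0.40, with 1.02 in BXPC3 and -0.47 in PANC1, also under 1 RPKM there. RPTN and SPRR2C passed the filter only through BXPC3, so their PANC1 side is a shift near the bottom of the table. No p-value is given for them, although the counts above include their calls. TCHH differed by -0.79 ± 0.20 (limma, adjusted p = 0.0097), with 0.82 in BXPC3 and 0.02 in PANC1. S100A13 differed by 0.74 ± 0.25, with -0.77 and -0.03. Its PANC1 levels lay between -0.34 and 0.25 log2 RPKM. It too passed the filter only through BXPC3, so no p-value is given for it. TGM2, which was abundant in both lines, differed by -1.69 ± 0.10 (limma, adjusted p = 2.01e-06), with 0.51 in BXPC3 and -1.18 in PANC1. CNFN differed by 1.07 ± 0.28 (adjusted p = 0.012), with -0.94 and 0.13. CSTA, which encodes the envelope protein cystatin A, differed by -3.23 ± 0.37, with -0.77 and -4.01, but by 0.34 in the opposite direction on the scale of log2(RPKM + 1). SLPI, a secreted protease inhibitor gene, differed by -2.20 ± 0.73, with 0.03 and -2.18. CSTA and SLPI stayed under 1 RPKM in PANC1 and passed the filter only through BXPC3, so they too are given without a p-value. In SPRR1A and CRNN every GelMA library of BXPC3 was higher than both collagen libraries and every GelMA library of PANC1 was lower than both. Their line differences were -0.97 and -1.85 log2, and this difference was not tested, since the genes were chosen with it in view and their PANC1 levels were all under 0.2 RPKM.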

How the results depend on the processing

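Of the called results for named genes, 1 turned direction under the alternatives run: the line difference in the GelMA effect on CSTA became 0.34 log2 with log2(RPKM + 1), a scale that shrinks values under 1 RPKM by construction. The number of genes called between 7.5% and 5% GelMA in BXPC3 (13) fell to 0 with log2(RPKM + 1), with log2(RPKM + 0.1), with a replicate block and with the 6 BXPC3 libraries alone, and ran from 6 (without replicate 1 of 5% GelMA) to 33 (without replicate 2 of it). The line difference in the step between gels (1417) was 941 without the variance trend and 659 to 1314 without 1 library. Related epidermal genes called higher in BXPC3 in 7.5% GelMA (11) were 22 with log2(RPKM + 1), 19 with BXPC3 alone and 7 to 12 without 1 library, and those called lower in 5% GelMA (16) were 25 with log2(RPKM + 1) and 7 to 20 without 1 library. Without 1 library, the genes called against collagen in BXPC3 were 3047 to 4336 in 5% GelMA (4720) and 2610 to 4314 in 7.5% GelMA (4701), and those between the gels in PANC1 (2956) were 1449 to 1746 without 1 gel library. The related genes ran from 7 to 14 called higher in 5% GelMA in BXPC3, from 10 to 27 called lower in 7.5% GelMA in BXPC3, and from 10 to 15 higher and 19 to 25 lower between the gels in PANC1 without 1 gel library. A fit with fewer libraries has fewer residual degrees of freedom, and a lone library is assumed to vary like the other groups; other causes were not tested. Of the 18 differences of the 9 genes from collagen in BXPC3, which were not tested, 8 turned direction without 1 library and 0 under another setting. Besides SPRR2A and SPRR2D these were, in 5% GelMA, IVL (0.099) and CRCT1 (0.089) without replicate 2 of collagen and SPRR3 (-0.060) without replicate 1 of it. In 7.5% GelMA they were SPRR3 (0.12 without replicate 2 of collagen and 0.017 without replicate 2 of the gel) and FLG (-0.45 without replicate 1 of collagen and -0.30 without replicate 1 of the gel). Of 52 called results for other named genes in BXPC3, 29 lost their call without at least 1 library and 10 under another setting, and 0 turned direction. Replicate numbers are not known to pair samples: deviations of same-numbered libraries from their group means correlated at -0.05 to 0.08 in both lines. With the replicate block 4243 genes were called in 5% GelMA and 4212 in 7.5% GelMA against collagen in BXPC3. Unknown depth and the unknown offset limit every value under 1 RPKM, which includes all 9 genes in PANC1.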
